A study of Vitis vinifera with 6 samples.

Results

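Stilbene synthases and the genes that act with them were followed in fully expanded grapevine (Vitis vinifera) leaves. The set held 52 of the 34369 probes on the array, 1 probe per locus, and was chosen by locus name rather than by signal. By those names 39 probes lay in a stilbene synthase cluster on chromosome 16 (VIT_16s0100g00750 to VIT_16s0100g01200) and 10 in a smaller cluster on chromosome 10 (VIT_10s0042g00840 to VIT_10s0042g00930). The other 3 probes were those of MYB14 (VIT_07s0005g03340), MYB15 (VIT_05s0049g01020) and a resveratrol O-methyltransferase (VIT_12s0028g01880). The files do not say what each locus encodes, so the 49 cluster probes are called stilbene synthase probes by their position in the locus order.

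Stilbene synthase joins p-coumaroyl-CoA with malonyl-CoA to make resveratrol, a defence compound of grapevine. The enzyme uses the same substrates as chalcone synthase, which opens the flavonoid pathway. In grapevine the genes form tandem arrays of closely related copies that are known to respond to ultraviolet light, wounding and fungal attack in leaves. MYB14 and MYB15 are R2R3-MYB transcription factors known to activate stilbene synthase promoters in grapevine, and the O-methyltransferase turns resveratrol into pterostilbene.

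The samples were 3 leaf samples of control plants and 3 of plants labelled as overexpressing CARPO, a NAC transcription factor, all of the red cultivar Syrah (BVRC12 clone) grown in a greenhouse from anther-derived callus, with 1 Cy3 array per sample. The labels call the samples biological replicates from selected transgenic lines, but do not say which line each came from, which promoter drove the transgene or what the control plants carried. At the locus taken as CARPO, VIT_08s0007g07670, the intensity was 12.4, 50.4 and 25.3 for the controls (replicates 1, 2 and 3, the order used throughout) against 10.1, 15.1 and 271 for labelled overexpression. Only the third of these stood above every control, so the word "labelled" is kept for the group, and every direction below is that of the label. Control replicate 1 was not well above background at this probe, and whether the probe detects the transgene was not tested. Labelled overexpression replicate 3 also stood apart across the array: its correlations with the other arrays over 18929 probes were 0.810 to 0.854, against 0.883 to 0.974 among the rest. It was the only array on its slide and in its scan. Its 2103 outlier spots were 6.12% of its probes. The leaf itself, the slide and the scan cannot be told apart for that array, so results are given with and without it. The leaf label was not checked against leaf markers, since the locus names come without gene names.

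The stilbene synthase probes were dim in 5 arrays and bright in labelled overexpression replicate 3. At VIT_16s0100g01130 the intensity was 379, 217 and 190 for the controls against 249.8, 269.8 and 42124 for labelled overexpression. The last value was 167-fold above the control mean (of log2 intensity scaled to each array's 75th percentile), while labelled overexpression replicates 1 and 2 lay inside the control range both in intensity and after scaling. At VIT_16s0100g00800 the intensity was 132, 175 and 97.2 for the controls against 174, 214 and 16960 for labelled overexpression. The same single array was high there, and the other 5 lay between 97.2 and 214. VIT_16s0100g00840 gave 98.3, 199 and 118 for the controls against 138, 213 and 17328 for labelled overexpression, the last from a spot marked as an outlier by the extraction software.

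**Figure D1:**
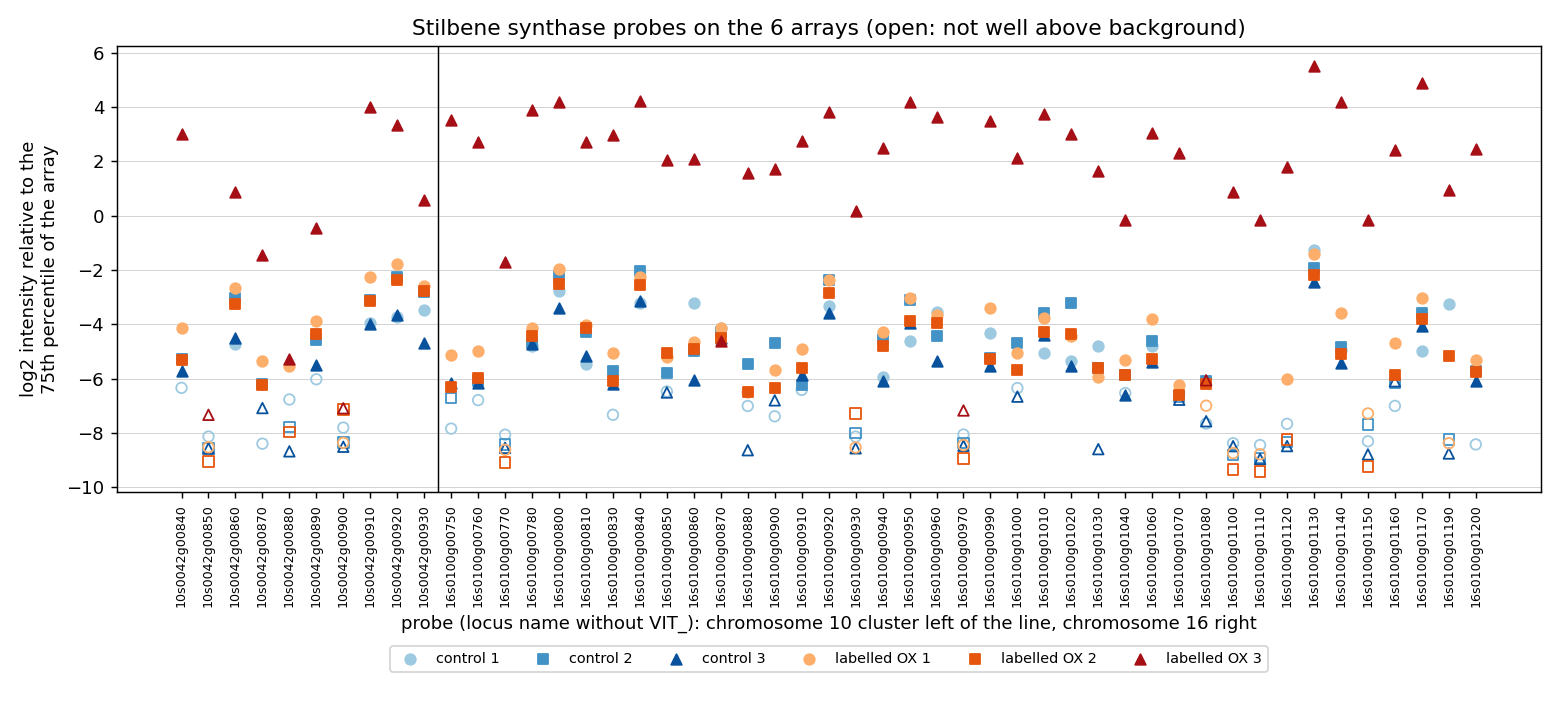
Log2 intensity relative to the 75th percentile of each array for the 49 stilbene synthase probes in locus order, with the chromosome 10 cluster left of the vertical line. Each symbol is 1 array (labelled OX is labelled overexpression), open symbols were not well above background, and spots marked as outliers are drawn too. The triangles of labelled overexpression replicate 3 lie above the other 5 arrays at 48 of the 49 probes.

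Levels are given from here on as log2 of the intensity over the 75th percentile of the same array, and a deviation is such a level minus the control mean. On labelled overexpression replicate 3, 43 of the 49 stilbene synthase probes lay at least 16-fold above the control mean, with marked spots counted. They were 36 of 39 probes on chromosome 16 and 7 of 10 on chromosome 10. The size of a deviation was measured on both sides at the 20 of them that were well above background on every control. These were 16 probes of chromosome 16, with deviations of 6.83 to 9.26 and a median of 8.02, and 4 of chromosome 10, with deviations of 4.25 to 7.69 and a median of 5.76. Another 15 were well above background on 1 or 2 controls, so their deviations of 4.94 to 10.43 rest in part on dim spots. The remaining 8, all of chromosome 16, were well above background on no control. Against the lowest control level that could be measured, these stood from at least 27.0-fold to at least 433-fold higher. Among all probes tested and with a usable spot on that array, 1.51% lay as far above the controls, against 27 of 28 stilbene synthase probes under the same conditions. Of those 28, 14 had a control not well above background and entered only through the arrays labelled overexpression, where they were high. The share among all probes with every control well above background is not given here. Of the 10 probes farthest above the control mean on that array, 7 were members of the set, as were 21 of the first 50 and 24 of the first 100, out of 21880 ranked. Several of these members had a control not well above background. They were ranked only because the arrays labelled overexpression cleared background, so their ranks rest in part on dim spots. These counts describe 1 array, and have no replicate.

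The 6 stilbene synthase probes under 16-fold on that array differed from the rest. VIT_16s0100g00870 cleared background on all 6 arrays and was steady throughout, with intensities of 51.3, 42.5 and 45.3 for the controls against 38.5, 54.1 and 37.2 for labelled overexpression. Its fitted difference was -0.11 (SE 0.24, limma adjusted p 0.854), the only negative one among the stilbene synthase probes tested. VIT_10s0042g00850, VIT_10s0042g00900 and VIT_16s0100g00970 were well above background on no array, so nothing is read from their values. VIT_16s0100g01080 was well above background only on control replicate 2 and labelled overexpression replicate 2. VIT_10s0042g00880 was well above background only on labelled overexpression replicates 1 and 3, with intensities of 14.2 and 23.5.

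Of the 8 probes of chromosome 16 counted above as well above background on no control, 5 were so on labelled overexpression replicate 3 alone. Their intensities there were 283 at VIT_16s0100g00770, 1056 at VIT_16s0100g00930, 1680 at VIT_16s0100g01100, 827 at VIT_16s0100g01110 and 838 at VIT_16s0100g01150. The spot at VIT_16s0100g01100 was marked as an outlier. A level in the controls is then only a bound there, taken for each array as the higher of the probe's own level and the lowest level of any probe well above background. Against that bound the single array was at least 27.0-fold higher at VIT_16s0100g00770 and at least 160-fold higher at VIT_16s0100g01100, with the others between. VIT_16s0100g01120 was seen on labelled overexpression replicates 1 and 3 only, at 10.4 and 3222. VIT_16s0100g01070 and VIT_16s0100g01160 were seen on every array labelled overexpression and on no control, and entered the fit only through the former. The first had intensities of 9.62, 8.14 and 9.43 for the controls against 8.96, 12.7 and 4549 for labelled overexpression. The second had 7.08, 11.4 and 15.1 against 25.7, 21.2 and 4983. Their group means stood at least 7.74-fold and at least 10.7-fold above the bound (adjusted p 0.570 and 0.466, limma). Those means rest mostly on labelled overexpression replicate 3.

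In the chromosome 10 cluster the same array was high, by less. At VIT_10s0042g00910 the intensity was 58.3, 94.5 and 64.9 for the controls against 140.1, 140.2 and 14729 for labelled overexpression. All 3 arrays labelled overexpression exceeded the controls in raw intensity, but after scaling replicate 2 (-3.14) lay below control replicate 2 (-3.11). At VIT_10s0042g00920 the intensity was 68.8, 171 and 81.4 for the controls against 196, 241 and 9434 for labelled overexpression. VIT_10s0042g00930 had 81.8, 116 and 40.4 for the controls against 111, 182 and 1390 for labelled overexpression, and its scaled levels did not overlap between the groups. Whether probes tell near-identical copies of a cluster apart was not tested, since probe sequences were not used here. In whole leaves, more cells with a transcript and more transcript per cell cannot be told apart.

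The group comparison asked whether the leaves labelled overexpression differ from the controls. Only probes well above background on all usable arrays of 1 group or both entered the fit, which left 36 of the 49 stilbene synthase probes. Of these, 15 passed that condition only through the arrays labelled overexpression, and a probe that passes that way tends to be higher there. None of the 36 (0) reached an adjusted p under 0.05 in limma, and none (0) had an unadjusted p under 0.05. Over all 23752 probes tested, 0.08% passed the adjusted threshold in either direction, 0.0168% passed it with labelled overexpression higher, and 5.85% were higher at an unadjusted p under 0.05. The fitted log2 difference was positive at 35 of the 36, with a median of 2.81 and a range of -0.11 to 4.27, beside a median of 0.0038 over all probes tested. At the 21 probes well above background on every control the median was 2.39. Standard errors ran from 0.24 to 2.54 with a median of 1.84, and the smallest adjusted p was 0.349.

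Over the 28 stilbene synthase probes with 6 usable spots, the median SD was 4.20 in the arrays labelled overexpression and 0.72 in the controls. VIT_16s0100g00750 had the largest difference, 4.27 (SE 2.54, limma adjusted p 0.484), from levels of -6.91 ± 0.85 (SD, n = 3) for controls against -2.65 ± 5.37 (SD, n = 3). Its intensity was 3.97, 7.76 and 14.3 for the controls against 18.9, 15.4 and 10588 for labelled overexpression. Only control replicate 3 among the controls was well above background there. VIT_16s0100g01200, with a difference of 3.86, and VIT_16s0100g00830, with 3.69, were each well above background on 2 of 3 controls. Their intensities were 5068 and 7240 on labelled overexpression replicate 3 and at most 22.5 on the other 5 arrays.

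Without that array the differences were smaller. Over the same 36 probes the median log2 difference became 0.74, with a range of -0.03 to 1.44, and 34 were still positive. These counts include the 15 probes that had passed the filter only through the arrays labelled overexpression, which tends to make differences positive. At the 21 probes well above background on every control the median was 0.57. Again 0 of the 36 passed in limma, with a smallest adjusted p of 0.136. An unadjusted limma p under 0.05 was found at 3 of them, against 19.1% of all probes tested. The median over all probes was 0.05 in that fit. By cluster the median went from 2.89 to 1.11 over the 7 probes of chromosome 10, and from 2.77 to 0.57 over the 29 of chromosome 16. At VIT_16s0100g01130 the difference went from 2.51 to 0.07, at VIT_16s0100g00860 from 2.26 to -0.03, and at VIT_16s0100g01140 from 3.57 to 0.73. At 8 probes the spot on labelled overexpression replicate 3 was marked as an outlier and left unused, although its deviation there was 7.03 to 9.06. The fitted differences of these 8, 0.32 to 0.86, therefore rest on 2 arrays labelled overexpression. With marked spots kept, the median over the 36 was 3.03. In all, 10 of the 52 members had a marked spot on that array and 0 on the others.

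**Figure D2:**
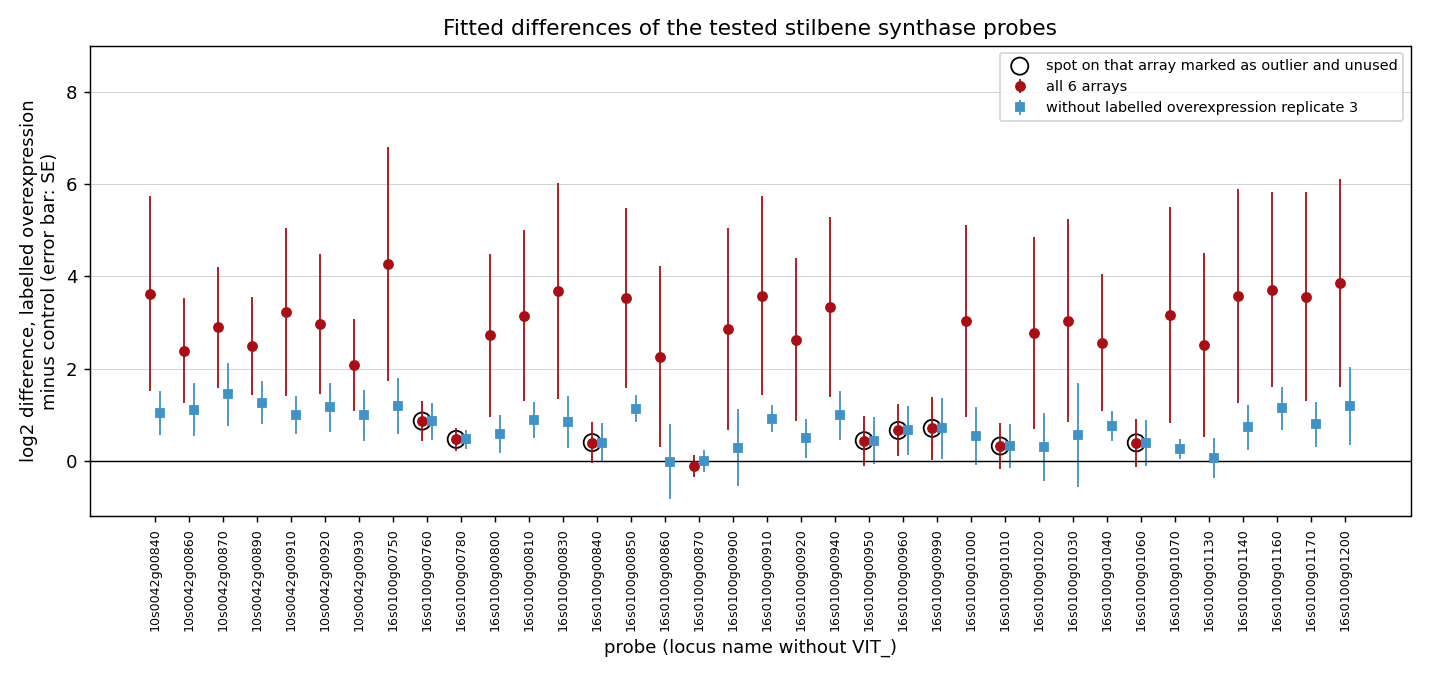
Fitted log2 difference, labelled overexpression minus control, with its standard error for the 36 stilbene synthase probes tested, from all 6 arrays (circles) and without labelled overexpression replicate 3 (squares). Ringed circles are the 8 probes whose spot on that array was unused. The circles have a median of 2.81 and the squares one of 0.74.

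Scan was recorded for each array, and 2 scans held both groups. In scan 1, labelled overexpression replicate 1 minus control replicate 1 had a median of 1.32 over the 36 probes and was positive at 32. In scan 2, labelled overexpression replicate 2 minus the mean of control replicates 2 and 3 had a median of 0.15 and was positive at 28. The corresponding medians over all probes tested were 0.05 and 0.0002. Of the 36, 15 had passed the filter only through the arrays labelled overexpression, which favours positive values. At these probes the median deviation from the other controls was -0.63 for control replicate 1 and 0.90 for control replicate 2. The share of all probes positive within scans is not given here, so nothing is read from those counts. With scan as a block, which leaves labelled overexpression replicate 3 out of the difference, the median difference was 0.67, and 0 stilbene synthase probes passed.

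The groups did not overlap, with labelled overexpression higher, at 7 of the 28 stilbene synthase probes with 6 usable spots, where 10.5% of all such probes did the same. Of the 7, 2 lay on chromosome 10 and 5 on chromosome 16, with differences of 2.08 to 3.71. Of the 7, 5 had a control not well above background and had entered the fit through the arrays labelled overexpression, where they were high. Among the 14 probes with 6 usable spots and every control well above background, 2 did not overlap, VIT_10s0042g00930 and VIT_16s0100g00810, where 9.98% of all such probes did not. The groups were apart in the other direction at 0 stilbene synthase probes, against 13.7% of all such probes. At VIT_16s0100g00850, one of the 7, the intensity was 10.2, 14.8 and 11.3 for the controls against 18.3, 36.8 and 3856 for labelled overexpression. Its levels were higher in each array labelled overexpression than in any control, by a small step in replicates 1 and 2 and a large one in replicate 3.

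The 5 arrays other than labelled overexpression replicate 3 also varied at these probes. Of the 36 probes tested, 15 had passed the filter only through the arrays labelled overexpression, which favours higher values on those arrays. Labelled overexpression replicate 1 was the highest of the 5 at 26 of the 36 and above every control at 27. It was at least 2-fold above the control mean at 20 of them, where 10.5% of all probes tested were. Labelled overexpression replicate 2 was above every control at 9 and at least 2-fold above their mean at 2, where 4.26% of all probes were at least 2-fold above. For single arrays above every control, the share of all probes is not given here, so nothing is read from those counts. Control replicate 2 was at least 2-fold above the mean of the other controls at 17 of the 36, where 2.13% of all probes were. For control replicate 1 that count was 4 (5.81% of all probes), and for control replicate 3 it was 1 (2.91%). On labelled overexpression replicate 3, 27 of the 28 usable probes were at least 2-fold above the control mean, against 18.8% of all probes. The lowest of the 5 was control replicate 1 at 18 probes and control replicate 3 at the remaining 18. The median deviation over the 36 probes was 0.90 for control replicate 2 from the other controls, 1.07 for labelled overexpression replicate 1 and 0.38 for replicate 2 from all controls.

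Control SDs over the tested probes ran from 0.07 to 1.999. Among probes well above background on all 6 arrays, VIT_16s0100g00780 was the steadiest in the controls, at 32.3, 32.0 and 38.8, with 38.3 and 57.0 in labelled overexpression replicates 1 and 2 and a marked spot of 13803 in replicate 3. VIT_16s0100g01140, next to VIT_16s0100g00870 in steadiness, had 29.7, 28.3 and 24.0 for the controls against 55.4, 36.0 and 16831 for labelled overexpression. Of the same probes, VIT_16s0100g00860 and VIT_16s0100g01020 varied widely in the controls. The first had 97.5, 26.2 and 15.7 there, highest in control replicate 1. The second had 22.3, 88.5 and 22.4, highest in control replicate 2, so that the high control was not the same array at both.

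MYB14, one of the transcription factors that act on stilbene synthase promoters, was higher in each array labelled overexpression, with no array standing far apart. Its intensity was 79.5, 88.4 and 110 for the controls against 146, 429.6 and 344 for labelled overexpression. Every array labelled overexpression was above every control, as at 9.98% of all probes with 6 usable spots and every control well above background. The level was -3.32 ± 0.17 (SD, n = 3) for controls against -1.71 ± 0.42 (SD, n = 3) for labelled overexpression, 3.05-fold higher. The difference of 1.61 (SE 0.28) had an unadjusted p of 0.0011 and an adjusted p of 0.106 in limma, over the threshold. In the exact permutation test (two-sided) p was 0.1, the smallest that 3 against 3 arrays allow. Without labelled overexpression replicate 3 the difference was 1.46 (limma adjusted p 0.0885), and within scans it was 1.32 and 1.70.

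MYB15, the other regulator, was low in the controls and higher in each array labelled overexpression, most of all in replicate 3. Its intensity was 36.9, 26.6 and 44.0 for the controls against 197, 139 and 1566 for labelled overexpression. The groups did not overlap, as at 9.98% of all probes with 6 usable spots and every control well above background. The level of MYB15 was -4.71 ± 0.20 (SD, n = 3) against -1.39 ± 1.99 (SD, n = 3), a difference of 3.32 (SE 0.95) with an unadjusted p of 0.0121 and an adjusted p of 0.1997 in limma. The exact permutation p was again 0.1. Labelled overexpression replicate 3 alone was 44.3-fold above the control mean, and without it the difference was 2.25 (limma adjusted p 0.0919), or 4.75-fold. Within scans the difference of MYB15 was 2.86 and 1.59. In the fit of all 6 arrays MYB14 and MYB15 were the only 2 of the 39 members tested with an unadjusted limma p under 0.05. Both were higher, where 5.85% of all probes tested were, so nothing is read from that count. Without labelled overexpression replicate 3, 5 of the 39 had an unadjusted limma p under 0.05, where 19.1% of all probes tested did. They were these 2 and 3 stilbene synthase probes. After adjustment 0 members passed.

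The resveratrol O-methyltransferase probe had intensities of 265, 96.3 and 147 for the controls against 367, 299 and 1509 for labelled overexpression, the last from a marked spot. Labelled overexpression replicate 2 lay below control replicate 1 after scaling, so the groups overlapped. With the marked spot unused, its level was -2.56 ± 0.69 (SD, n = 3) against -1.45 ± 0.84 (SD, n = 2). The fitted difference, 1.11 with an SE of 0.56, did not pass in limma (adjusted p 0.434), and the exact permutation p (two-sided) was 0.4, with 0.2 the lowest that 3 against 2 allow. Within scans it was 0.92 and 0.91. The marked spot itself was 9.64-fold above the control mean.

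**Figure D3:**
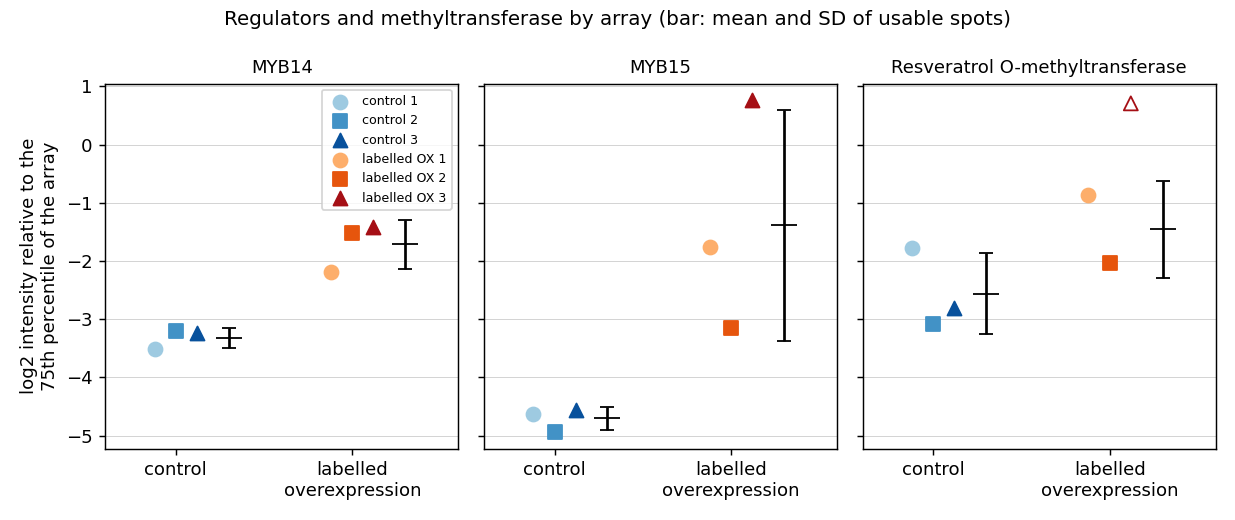
Log2 intensity relative to the 75th percentile of each array for MYB14, MYB15 and resveratrol O-methyltransferase, 1 symbol per array (labelled OX is labelled overexpression), with the mean and SD of the usable spots beside each group. The open triangle is the marked spot of the methyltransferase. The 3 arrays labelled overexpression lie above all controls for MYB14 and MYB15, and MYB15 reaches 0.76 in replicate 3.

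Enzymes that supply or share the substrates of stilbene synthase were taken as 22 loci, named from knowledge of the grapevine annotation outside the files. They were 13 loci of phenylalanine ammonia-lyase, the entry enzyme of the phenylpropanoid pathway, 3 of cinnamate 4-hydroxylase and 3 of 4-coumarate-CoA ligase, which finish p-coumaroyl-CoA, and 3 of chalcone synthase. Of the 20 tested, 0 passed in limma in either direction, 8 differences were positive and 12 negative, and 5 had an unadjusted p under 0.05, all 5 lower in the arrays labelled overexpression, where 9.21% of all probes tested were. The median difference was -0.26. Without labelled overexpression replicate 3 the median was -1.21 and 4 differences were positive. In that fit 13 of the 20 had an unadjusted p under 0.05, against 19.1% of all probes tested, and 0 passed the adjusted threshold (smallest adjusted p 0.0678, limma).

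The 12 phenylalanine ammonia-lyase probes tested deviated from the control mean on labelled overexpression replicate 3 by -2.26 to 6.15, with a median of 2.65. In the fit without that array their median difference was -1.26. The 3 chalcone synthase probes lay below the control mean on that array, by deviations of -5.03 to -2.81, while the stilbene synthase median there was 8.03 with marked spots counted. Chalcone synthase was also lower without that array, with differences of -2.01 to -1.65, and 0 of the 3 passed (smallest adjusted p in the fit of all 6 arrays 0.217, limma). The 3 probes of 4-coumarate-CoA ligase deviated by 0.33 to 2.88 and the 2 tested probes of cinnamate 4-hydroxylase by 0.91 and 3.57. All these deviations on that array count marked spots. There were 2 such spots for 4-coumarate-CoA ligase and 1 each for cinnamate 4-hydroxylase (0.91), chalcone synthase (-2.81) and phenylalanine ammonia-lyase. Whether the families differ from each other was not tested.

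**Figure D4:**
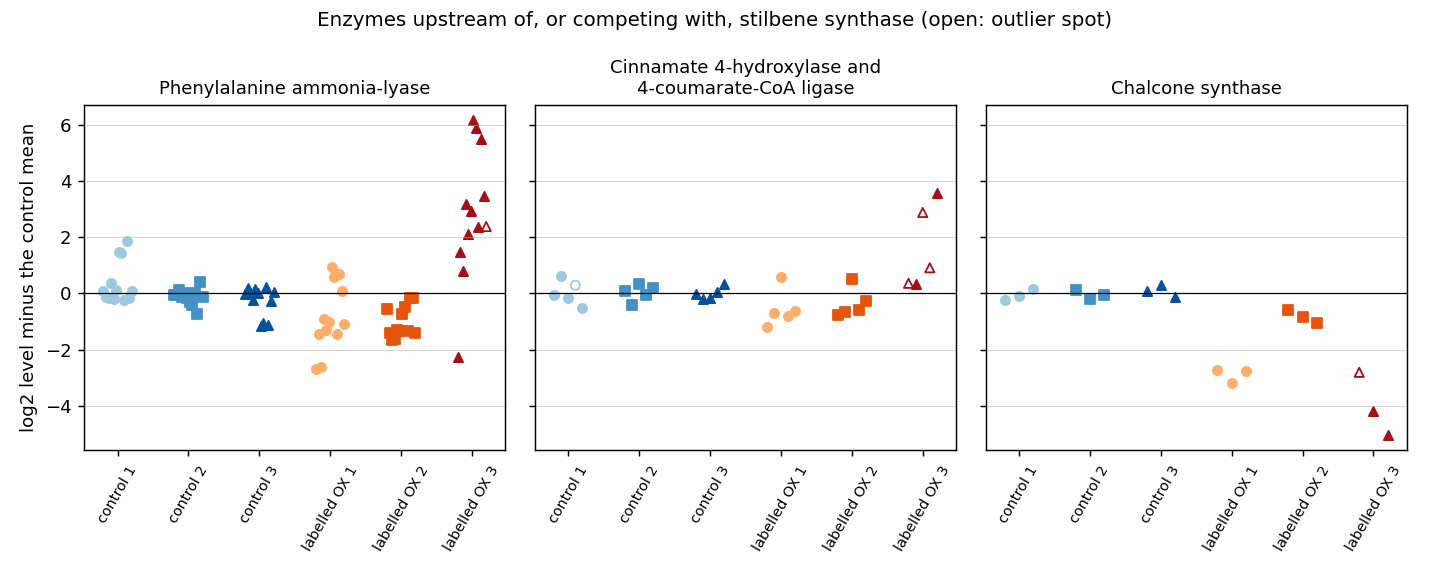
Log2 level minus the control mean on each array for the tested probes of phenylalanine ammonia-lyase (12), cinnamate 4-hydroxylase (2) with 4-coumarate-CoA ligase (3), and chalcone synthase (3), 1 symbol per probe and array, open where the spot was marked as an outlier. Labelled OX is labelled overexpression. On labelled overexpression replicate 3 the phenylalanine ammonia-lyase probes reach 6.15 and the chalcone synthase probes go down to -5.03.

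The deposited processed table holds 27 of the 52 members, 24 of them stilbene synthase probes, and none of the 5 seen only on labelled overexpression replicate 3. In 5 of its 6 columns, 100% of the values were within 5% of a constant multiple of the scanner intensity of the same sample, so their scale is known. In the column of labelled overexpression replicate 3 only 6.70% were. At all 23065 probes of the table, that column was neither above nor below both of the other labelled overexpression columns, while a control column lay between the other controls at 24.8% to 43.9% of the probes. How that column was made is not given in the sources used here, and it is not treated as a measured sample.

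At VIT_16s0100g01130 the table gives 389.6, 249 and 172 for the controls against 350.3, 205 and 256, where the scanner file of the last sample had 42124. At VIT_10s0042g00910 it gives 59.9, 108 and 58.7 against 196, 106 and 138, where the scanner file had 14729. Over the 24 stilbene synthase probes the deviation of labelled overexpression replicate 3 from the control mean had a median of 0.66 and a range of -0.06 to 1.21 in the table. From the scanner files the median was 7.70 and the range -0.32 to 9.26.

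**Figure D5:**
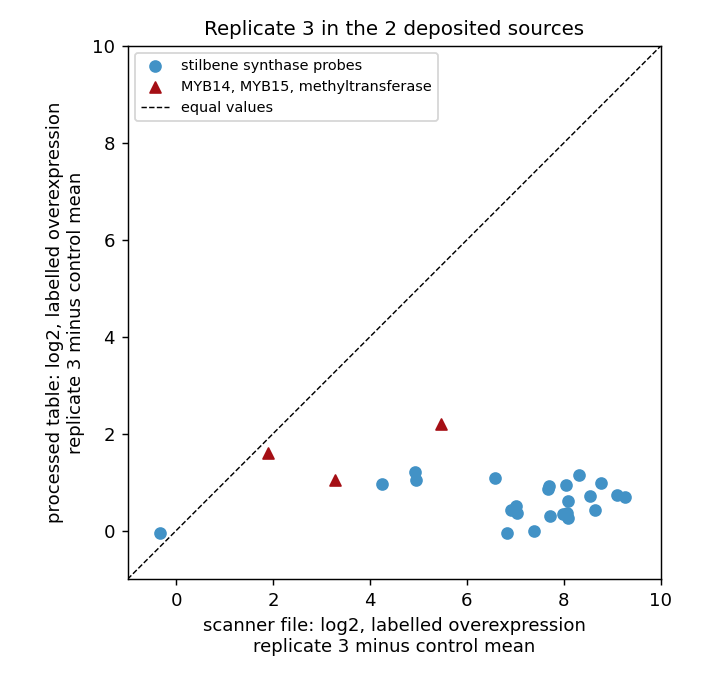
Labelled overexpression replicate 3 minus the control mean on the log2 scale, from the scanner files (horizontal) and from the processed table (vertical), for the 24 stilbene synthase probes and 3 other members in the table. Points on the dashed line would have equal values in both. The stilbene synthase probes reach 9.26 from the scanner files and 1.21 in the table.

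Fitted in limma as 3 columns against 3, the processed table called 3114 of its 23065 probes, 1298 of them with labelled overexpression higher. Among the 27 members it holds, 3 were called, all with labelled overexpression higher. They were MYB14 with a difference of 1.51 (SE 0.21, adjusted p 0.0130), MYB15 with 2.23 (SE 0.36, adjusted p 0.0176) and VIT_16s0100g00850 with 1.14 (SE 0.22, adjusted p 0.0281). These p-values count the column that lies between the other 2 as a replicate, and so understate the spread. Without that column 0 members passed in limma, and the median difference over the 24 stilbene synthase probes was 0.68.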

How the data were processed

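The authors extracted spot intensity, per the file headers, with Agilent Feature Extraction 10.5.1.1, with background and spatial trend removed within each array and no scaling between arrays. The deposited files also carry 0 or 1 marks for outlier spots and for spots well above background. A processed table of intensity values for 23065 probes was deposited. Its making is not given in the sources used here; its values are linear and uncentred, with column medians of 490.03 to 506. The 75th percentile of intensity was 668 to 1234, 68.4% to 74.5% of probes were well above background, and 0 spots were saturated. The number of arrays limits the precision.

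Levels are log2 of the processed signal minus log2 of the 75th percentile of the array. Control spots were left out, marked outlier spots were treated as missing, and 2 usable spots per group were needed. Groups and replicate numbers came from the sample titles. All probes were fitted with limma 3.58.1 in R 4.3.3 without covariates, with Benjamini-Hochberg adjustment over 23752 probes and a threshold of 0.05. The fit was tested on simulated data. The p-values measure the spread between these samples.

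The members, the lists and the alternatives were chosen with earlier results of these data known. Probes to be named were the 3 single genes, members past the threshold, probes with the highest mean level per cluster, the largest differences in each direction, the smallest and largest control SD, and members seen in no array or in 1 group. VIT_16s0100g00850, VIT_16s0100g01080 and VIT_16s0100g01190 were chosen after their values were seen. The reference gene table matched 0 locus names, so no sequence or position is printed. Deviations from the group means correlated at 0.25, 0.05 and -0.01 between same-numbered arrays, so replicate number is only an alternative. Other alternatives were normexp (offset 50), quantile normalization, other filters, outlier spots kept, array weights, the processed table, blocks for scan or slide, and each array left out in turn.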

Additional observations from a re-analysis of the deposited data

How the results depend on the processing

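No member of the set passed in limma (0) under any alternative except the processed table, which called 3. Of the 22 pathway loci, 21 are in that table and 9 were called there, where 3114 of all 23065 probes were. With 1 array left out, 0 to 2 of the loci were called. The 2 came without labelled overexpression replicate 2, where 116 of all 22223 probes tested were called. The median over the stilbene synthase probes stayed positive in every alternative. It was 0.74 without labelled overexpression replicate 3, 4.31 without replicate 2, 0.74 with slide as a block, 0.67 with scan as a block, 1.05 with array weights (that array had a weight of 0.18), 1.32 with normexp and 0.68 in the processed table; leaving out 1 array gave 0.74 to 4.31. Labelled overexpression replicate 3 was alone on its slide and in its scan, so both blocks leave it out of the difference by construction. With the replicate block the median was 2.81, and 0 members passed. That block cannot change a difference where no spot is missing. The count over all probes, 19, became 0 with normexp, without a filter, and with the replicate block, 7 with the filter on all 6 arrays, 45 with scan and 69 with slide as a block, 123 with array weights, 3114 in the processed table and 94 in it without its column of labelled overexpression replicate 3, an alternative added after the data were seen. Leaving out 1 array gave 0 to 116; it was 0 without any control array or labelled overexpression replicate 1. The cause was not tested, except that 1 column of the processed table lies between 2 others at every probe, which narrows the spread there by construction.

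Over 20 probes and their alternatives, 300 values kept their direction and side of the threshold, 14 reversed and 2 passed it, MYB14 and MYB15 in the processed table. The slide block repeats the differences without labelled overexpression replicate 3, and the replicate block largely repeats those of the fit without covariates. These counts therefore hold some differences more than once. In the alternatives on scanner values the difference of MYB14 was 0.99 to 1.85 (limma adjusted p 0.0692 to 0.806) and that of MYB15 was 1.57 to 4.21 (limma adjusted p 0.0842 to 0.957). Reversed values were -0.33 at VIT_16s0100g00780, -0.043 at VIT_16s0100g00840 and 0.23 at VIT_16s0100g00870 with normexp. VIT_16s0100g00860 gave -0.036 in the processed table, -0.025 in it without that column, -0.26 with scan as a block, -0.025 with slide as a block, and -0.025 to 3.46 when 1 array was left out, lowest without labelled overexpression replicate 3. VIT_16s0100g01130 gave -0.074 with scan as a block. VIT_08s0007g07670 (0.47) gave -0.96 with array weights, -0.88 with scan and -1.004 with slide as a block. With 1 array left out it gave -1.004 to 1.29, lowest without labelled overexpression replicate 3, and -0.033 when control replicate 1 was dropped.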

Other observations

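VIT_16s0100g01190 of the chromosome 16 cluster did not follow its neighbours on the dim arrays, and was chosen after its values were seen. The controls gave intensities of 94.5, 2.69 and 2.39 against 2.001, 34.5 and 1785 for labelled overexpression. It was well above background on control replicate 1 and labelled overexpression replicates 2 and 3, and on no other array, so it was not tested. The arrays on which it was seen were thus of both labels and of 3 scans. At 4 of the 36 stilbene synthase probes tested, control replicate 1 was the highest of the 5 arrays other than labelled overexpression replicate 3.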
